A study of Mus musculus with 4 samples.

Results

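Iron storage and transport genes were examined in RNA bound to the ribosomes of midbrain dopamine neurons and in RNA of the whole midbrain. The group consists of 10 genes, Fth1, Ftl1, Tfrc, Trf, Slc40a1, Slc11a2, Aco1, Ireb2, Cp and Hfe, and its probe sets were all those of the array whose only annotated gene symbol is one of these names. This gave 28 of the 45101 probe sets, for 8 of the 10 genes. Ftl1 (3 probe sets) and Trf (1 probe set) are annotated only together with other genes, and no level was assigned to them.

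RNA was collected from mice of the Slc6a3 JD1640 TRAP line, in which a bacterial artificial chromosome with the Slc6a3 (dopamine transporter) gene drives EGFP fused to the ribosomal protein RPL10A. All mice carried the transgene on 1 allele, on a background of FVB founders bred to C57BL6/j, were 6 to 12 weeks old and received no treatment. Translating ribosome affinity purification (TRAP) pulls down the tagged ribosomes with their mRNA, and 2 TRAP arrays (replicates 2 and 4) were compared with 2 input arrays of whole midbrain RNA (replicates 1 and 2), which the labels call unbound. Each array was made from a pool of 5 mice of both sexes. The spread between arrays of a fraction, and the p-values drawn from it, include differences between pools and those from preparing and amplifying the RNA. These sources cannot be separated here. The paper states that input was collected in parallel from each replicate. Whether TRAP replicate 2 and input replicate 2 came from the same pool is not given, and the tests treated all arrays as independent.

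Iron in the brain is carried to cells by transferrin, taken up through the transferrin receptor, moved into the cytosol by the divalent metal transporter, stored in ferritin and released through ferroportin. The pair of iron regulatory proteins bind to stem loops in the mRNAs of several of these genes and adjust their translation or stability to the iron supply. Dopamine neurons of the substantia nigra are known for the iron that surrounds them, for their use of iron by tyrosine hydroxylase and for iron accumulation in Parkinson's disease.

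Levels are given in arbitrary expression units, the linear form of the deposited log2 values, and are compared only between arrays of the same probe set. A probe set was called above background when both arrays of at least 1 fraction reached 50 units, which held for 17073 of 45037 tested probe sets. Changes were tested with limma over all 45037, adjusted by the method of Benjamini and Hochberg, at a threshold of 0.05. Above background 18.8% of probe sets were higher and 9.13% lower in TRAP, and the median log2 fold change was 0.44, so a gene with no difference between the fractions lies below the median. After each array was centred on its bright probe sets, which lowered the median by 0.41, the shares became 21.9% and 22.6%. RNA quality controls differed between the fractions, and the Gapdh signal at the 3′ end exceeded that at the 5′ end by 3.52 to 4.96 log2 units in TRAP and by 6.39 to 6.81 in input. Between these fractions, fewer cells of a type, less RNA per cell and fewer ribosomes on an mRNA cannot be told apart.

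Of the 25 member probe sets tested, 9 were above background, from 7 genes, and 5 reached 50 units on all 4 arrays. Over all 25, 1 was higher and 10 lower, beside 19% and 26.1% of all probe sets tested, but 9 of those 10 lay under 50 units on all 4 arrays and are not counted further. Of the 9 above background 1 was higher in TRAP (Hfe) and 1 lower (Cp), beside 18.8% and 9.13% of all such probe sets. Those of Fth1, Tfrc, Slc40a1, Aco1 and Ireb2 did not pass. All 7 that did not pass had a negative log2 fold change. With Cp, 8 of the 9 were negative, beside 35.1% of all probe sets above background. On 5 of the 9 both TRAP arrays were below both input arrays and on 1 above, beside 24.9% and 51.5% of probe sets above background. After centring on bright probe sets 5 of the 9 were lower (Fth1, Tfrc, Slc40a1, Aco1 and Cp) and 1 was higher, beside the 22.6% and 21.9% of all probe sets given above. Transferrin receptor, ferroportin and the brighter of the ferritin heavy chain probe sets were below input on both TRAP arrays, by amounts whose test depended on how the fractions were scaled.

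**Figure D1:**
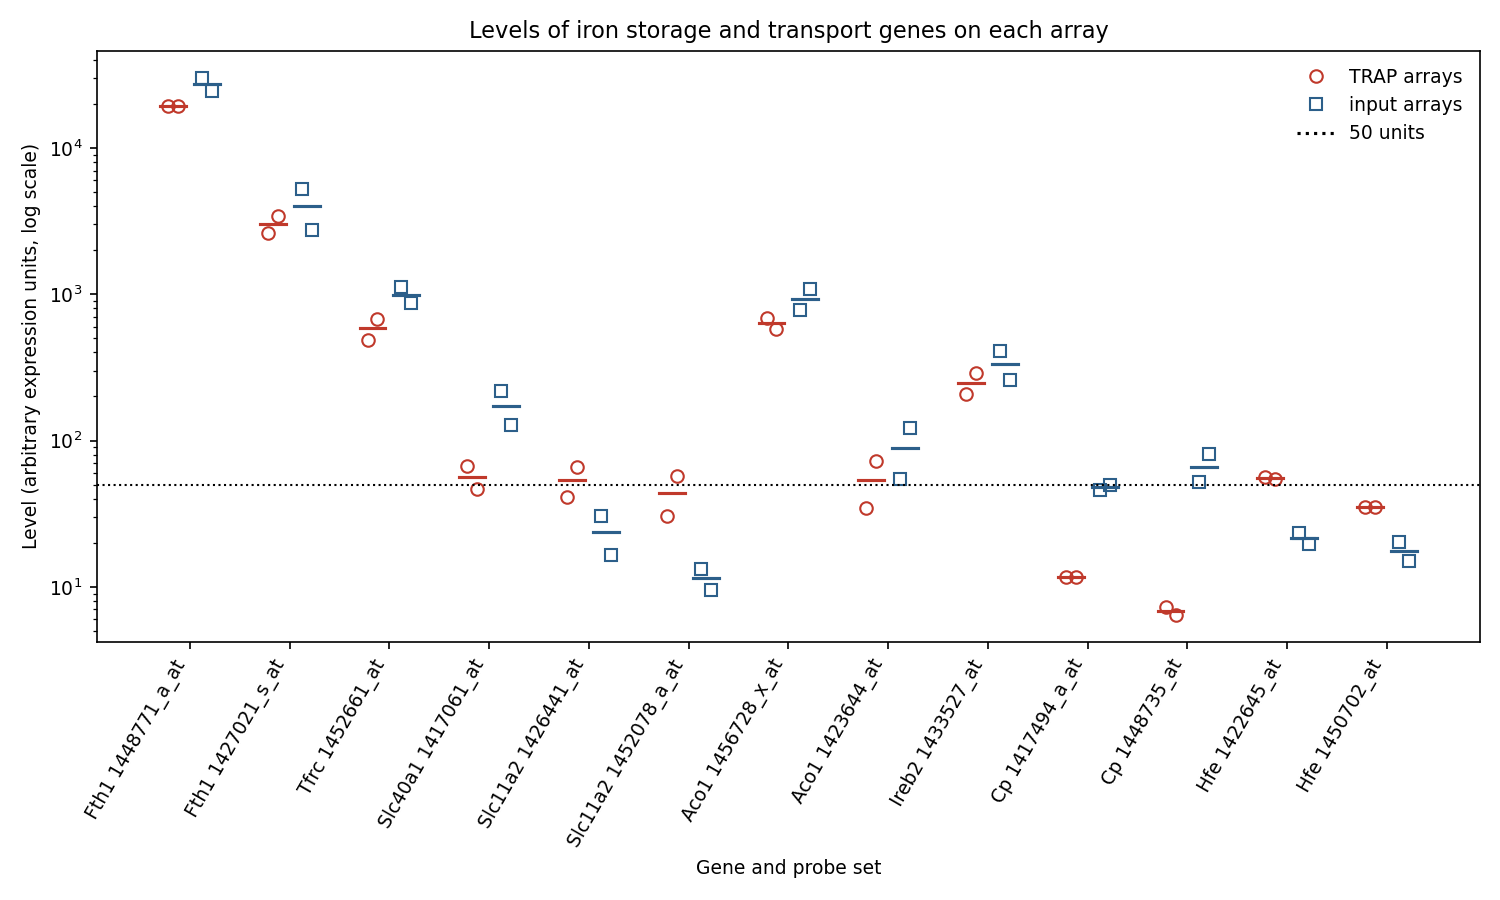
Level in arbitrary expression units (log axis) of the member probe sets above background and of the brighter probe sets of Slc11a2, Cp and Hfe below background. TRAP arrays (n = 2) are circles, input arrays (n = 2) squares, with a bar at each mean and a dotted line at 50 units. Fth1 (1448771_a_at) lies near 19267 units in TRAP and 27398 in input, and Hfe (1422645_at) crosses 50 units in TRAP alone.

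Fth1 encodes the ferritin heavy chain, the subunit with ferroxidase activity that loads iron into the ferritin shell. Its brighter probe set, 1448771_a_at, was at 19325 units on TRAP replicate 2, 19209 on TRAP replicate 4, 30236 on input replicate 1 and 24559 on input replicate 2. Both TRAP arrays lay below both input arrays and close to one another. The log2 fold change was -0.50 (standard error [SE] 0.14, 95% interval -1.03 to 0.03), which did not pass (adjusted p = 0.0870 from limma). The test passed after quantile normalization (log2 fold change -0.91, adjusted p = 0.0339 from limma), after centring (-0.91, adjusted p = 0.0136), without input replicate 1 (-0.35, adjusted p = 0.0111) and without input replicate 2 (-0.65, adjusted p = 0.00552). With 1 input array left out the spread is that between the TRAP arrays alone, which differed little.

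The other Fth1 probe set, 1427021_s_at, was at 2640 and 3428 units on TRAP replicates 2 and 4 and at 5230 and 2740 on input replicates 1 and 2. The fractions overlapped, and its log2 fold change of -0.33 (SE 0.47, adjusted p = 0.587 from limma) turned to 0.13 without input replicate 1. Ferritin heavy chain has many processed copies in the genome, whose transcripts these probe sets may not separate.

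Tfrc, the transferrin receptor through which cells take up transferrin-bound iron, was measured above background by 1 of its 3 tested probe sets. It was at 488 units on TRAP replicate 2, 682 on TRAP replicate 4, 1115 on input replicate 1 and 872 on input replicate 2. Both TRAP arrays were lower than both input arrays. The difference, a log2 fold change of -0.77 (SE 0.28, 95% interval -1.83 to 0.28), did not pass (adjusted p = 0.131 from limma), and it passed after centring (-1.18, adjusted p = 0.0217 from limma). The other 2 tested probe sets and the 3 control probe sets that the manufacturer placed along Tfrc (5′, middle and 3′) lay between 4.58 and 5.40 units on every array, at the floor of the values, and carry no information on the gene.

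Slc11a2 encodes the divalent metal transporter DMT1, which moves iron out of endosomes and across the cell membrane. None of its 4 probe sets was above background, and they did not move together. The brightest, 1426441_at, was at 41.1 and 65.9 units on TRAP replicates 2 and 4 and at 30.7 and 16.6 on input replicates 1 and 2. A second, 1452078_a_at, was at 30.4 and 57.3 units in TRAP and 13.3 and 9.50 in input. On both, TRAP replicate 4 alone exceeded 50 units, and TRAP lay above input with log2 fold changes of 1.20 (adjusted p = 0.172 from limma) and 1.89 (adjusted p = 0.0852 from limma) that did not pass. The other pair, at most 18.1 units on any array, had log2 fold changes of -1.44 and -0.61. No fold is drawn from a gene whose probe sets disagree in sign this close to the floor.

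Slc40a1 encodes ferroportin, the only known exporter of iron from mammalian cells. Its brighter probe set was at 66.5 units on TRAP replicate 2, 46.3 on TRAP replicate 4, 219 on input replicate 1 and 127 on input replicate 2. The input arrays were higher than the TRAP arrays, and 1 of the 2 TRAP arrays was below 50 units. Its log2 fold change of -1.59 (SE 0.44, 95% interval -3.25 to 0.08) was the most negative among the members that missed the threshold above background (adjusted p = 0.0860 from limma). The change passed after centring (log2 fold change -2.00, adjusted p = 0.0217 from limma) and when the fit was limited to probe sets above background (adjusted p = 0.0448 from limma). The second probe set of Slc40a1 stayed between 4.59 and 5.36 units.

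Cp encodes ceruloplasmin, the copper ferroxidase that works beside ferroportin and that astrocytes and the choroid plexus are known to make. Of its 8 probe sets 1 was above background, 1448735_at, at 7.26 and 6.44 units on TRAP replicates 2 and 4 and at 52.0 and 80.8 on input replicates 1 and 2. Both TRAP arrays were near the floor and both input arrays above 50 units. The probe set was lower in TRAP (adjusted p = 0.0155 from limma), and against 50 units the difference was at least 1.30-fold. On all 8 probe sets both TRAP arrays lay below both input arrays, beside 50.8% of all probe sets tested (35.9% had TRAP above), but 7 of the 8 were below 50 units on every array. On 1441326_at the values were the floor itself, 4.58 units in TRAP and 4.59 in input, so its order carries no information. The brightest over all 4 arrays, 1417494_a_at, was at 11.7 units on both TRAP arrays and at 46.0 and 49.96 in input. The call on 1448735_at was lost when either TRAP array was left out (limma, adjusted p = 0.125 without replicate 2 and 0.130 without replicate 4) and with values under 50 units raised to 50.

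Aco1 and Ireb2 encode the iron regulatory proteins, IRP1, which is the cytosolic aconitase when it holds an iron-sulfur cluster, and IRP2, which is degraded when iron is plentiful. The brightest Aco1 probe set, 1456728_x_at, was at 690 and 582 units on TRAP replicates 2 and 4 and at 777 and 1086 on input replicates 1 and 2. The fractions did not overlap, yet the log2 fold change of -0.53 (SE 0.25, 95% interval -1.49 to 0.42) did not pass (adjusted p = 0.195 from limma), and it passed after centring (-0.94, adjusted p = 0.0397 from limma). The suffix of this probe set marks probes that can also bind other transcripts. A second Aco1 probe set, 1423644_at, was at 34.6 and 72.1 units in TRAP and 54.7 and 121.7 in input, with overlapping fractions (log2 fold change -0.71, adjusted p = 0.468 from limma).

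Ireb2 was at 208 and 288 units on TRAP replicates 2 and 4 and at 411 and 257 on input replicates 1 and 2. Its fractions overlapped, since TRAP replicate 4 was above input replicate 2. The log2 fold change was -0.41 (SE 0.38, 95% interval -1.86 to 1.04, adjusted p = 0.430 from limma), an interval that includes both a fall of more than 2-fold and a rise of 2-fold.

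Hfe, a relative of class I histocompatibility molecules that binds the transferrin receptor and is mutated in hereditary haemochromatosis, was the member that rose. Its brighter probe set, 1422645_at, was at 55.9 and 54.2 units on TRAP replicates 2 and 4 and at 23.4 and 19.7 on input replicates 1 and 2. Both TRAP arrays were just above 50 units and both input arrays below. The log2 fold change was 1.36 (SE 0.12, adjusted p = 0.0132 from limma), and against 50 units the rise was at least 1.10-fold. The second probe set lay under 50 units on all arrays, at 35.3 units on both TRAP arrays and at 20.3 and 15.1 in input, again with TRAP above input (log2 fold change 1.02, adjusted p = 0.0565 from limma). The call was lost when either TRAP array was left out (limma, adjusted p = 0.123 without replicate 2 and 0.122 without replicate 4), at a background of 100 units, and with values under 50 units raised to 50, where its log2 fold change was 0.14.

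**Figure D2:**
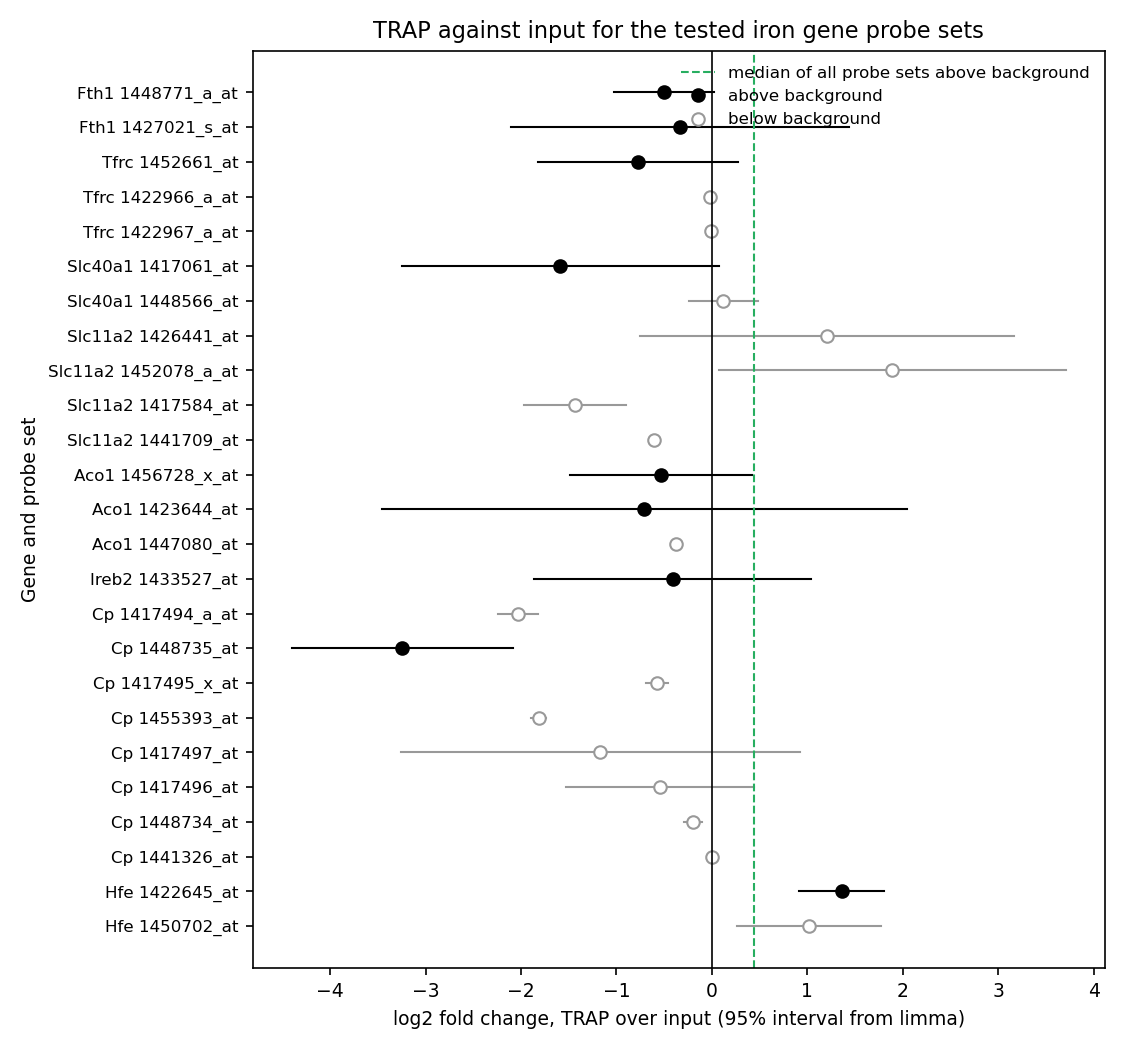
Log2 fold change of TRAP over input (horizontal axis) for the 25 tested member probe sets, with 95% intervals from limma. Filled points are above background, open points below, and the dashed line is the median of all probe sets above background (0.44). All filled points but Hfe lie to the left of 0, and the intervals of Cp and Hfe alone exclude 0 among the filled points.

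On 1 probe set per gene, the brightest, 5 of 6 genes above background were negative, and 1 (Hfe) passed. After centring 4 genes were lower and 1 higher, beside 21.2% and 21.4% of all genes above background. The median over the 8 measured genes was -0.52, beside 0.01 over all 18193 genes measured, and over the 4 genes that reached 50 units on all arrays (Fth1, Tfrc, Aco1 and Ireb2) it was -0.52, beside 0.44 over the 8513 such genes. Negative values were found for 34.2% of all genes above background. An exact permutation test of 2 against 2 arrays cannot give a p-value below 0.333, and none was run.

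Markers of other cell types moved with the fractions and differed between arrays of the same fraction. All 8 dopamine neuron markers rose, En1 at least 23.7-fold and Drd2 by a log2 fold change of 6.20 (SE 0.17, adjusted p = 0.00148 from limma), and their summed level was 109804 and 139903 units in TRAP and 10263 to 10937 in input. The 8 measured oligodendrocyte markers, of which 0 passed, summed to 79088 and 35069 units on TRAP replicates 2 and 4, against 91270 and 96290 in input. The 8 astrocyte markers, 2 of which fell, summed to 21867 and 13418 units in TRAP and 36979 and 44569 in input, and the 10 microglia and macrophage markers, 1 of which fell, to 2950 and 1359 in TRAP and 3496 and 4736 in input. Pan-neuronal markers, of which 0 of 8 passed, summed to 75842 and 80464 units in TRAP and 59185 and 49679 in input, GABAergic neuron markers (1 of 3 fell) to 5960 and 2839 in TRAP and 12865 and 5968 in input, and oligodendrocyte precursor markers to 206 and 160 in TRAP and 892 and 1203 in input. No glial sum was near 0 in TRAP, and the oligodendrocyte, astrocyte and microglia sums were higher on TRAP replicate 2. In TRAP 1 gene held most of each of these sums. On TRAP replicates 2 and 4, Mbp was at 41048 and 18665 units, Aldoc at 12363 and 7047, and Ctss at 1934 and 884. Sox9, Cx3cr1 and C1qc were under 50 units on both TRAP arrays and above 50 on both input arrays. The sums do not speak for every marker of a list.

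Choroid plexus and ependyma markers differed most between arrays of a fraction, at 1236 and 177 units in TRAP and 1390 and 17990 in input. In input nearly all of it was Ttr, the transthyretin gene of the choroid plexus. Ttr was at 17929 units on input replicate 2 and 1334 on input replicate 1. Otx2 went the other way, at 50.6 and 44.5 units in TRAP and 34.0 and 30.8 on input replicates 1 and 2. Folr1, Kl, Aqp1 and Foxj1 were under 50 units on all arrays, so the difference between the input sums rests on Ttr. On input replicates 1 and 2, Cp was at 52.0 and 80.8 units on 1448735_at and at 46.0 and 49.96 on 1417494_a_at. On 1455393_at it was at 16.4 and 15.9 units, the other way. Endothelial and mural markers summed to 562 and 142 units in TRAP and 1371 and 1397 in input, and Tfrc is known in brain vessels. The 4 erythroid markers measured were under 50 units on every array. What part these cells have in the values of Fth1, Tfrc, Slc40a1 and Cp was not tested.

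**Figure D3:**
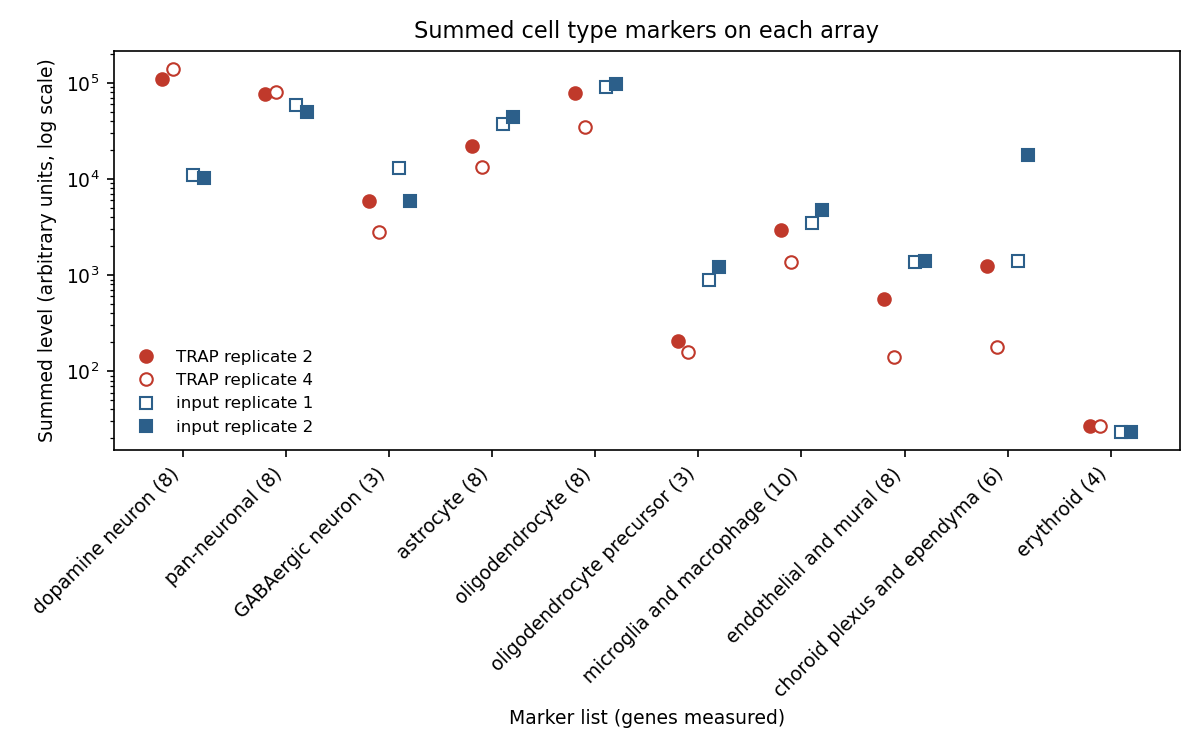
Summed level (log axis, arbitrary units) of each cell type marker list on the 4 arrays, with the number of genes measured in parentheses. Circles are TRAP and squares input, filled for replicate 2 of either fraction. Glial and vessel lists lie lower on TRAP replicate 4 than on TRAP replicate 2, and the choroid plexus list is highest on input replicate 2.

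Other genes of iron handling, 71 in 7 lists, were described the same way, 1 probe set per gene. Of these 65 were measured and 41 were above background, of which 14 rose, 1 fell and 26 did not pass. The background is 18.7% of genes higher and 6.87% lower. Their median log2 fold change over all measured was 0.51, beside 0.01 over all 18193 genes and -0.52 for the storage and transport genes. Over the 38 that reached 50 units on all 4 arrays it was 0.84, beside 0.44 over the 8513 such genes. The count of genes that rose was 8 without TRAP replicate 2, 7 without TRAP replicate 4, and 3 with values under 50 units raised to 50.

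Iron-sulfur cluster assembly and mitochondrial iron held 7 of the 14 rises, from 16 genes above background, with 0 falls. Of all genes above background 18.7% rose and 6.87% fell. The median of the list was 1.31 over the 17 measured. Nubp1 and Nubp2, which encode the cytosolic scaffold for iron-sulfur clusters, and Iba57, a mitochondrial assembly factor, were among them. Nubp2 was at 718 and 674 units on TRAP replicates 2 and 4 and at 200.1 and 119 on input replicates 1 and 2 (log2 fold change 2.17, SE 0.35, adjusted p = 0.0408 from limma). Nubp1 and Iba57 were below 50 units in input and were above background through TRAP alone. On TRAP replicates 2 and 4, Nubp1 was at 106 and 60.6 units and Iba57 at 65.1 and 59.4. Against 50 units the mean of the TRAP arrays was at least 1.60-fold higher for Nubp1 and at least 1.24-fold higher for Iba57. With values under 50 units raised to 50, neither passed (adjusted p = 0.693 for Nubp1 and 0.187 for Iba57 from limma). The scaffold gene Iscu, the cysteine desulfurase gene Nfs1, Nfu1 and Ciao2b rose too and were chosen for naming after their values were seen. Iscu was at 8191 and 7701 units in TRAP and 2307 and 1652 in input (log2 fold change 2.02, SE 0.23, adjusted p = 0.0214 from limma). In this list 4 genes rose without TRAP replicate 2 or TRAP replicate 4, 5 without either input array, and 0 with values under 50 units raised to 50, although the levels of Nubp2 and Iscu are untouched by that setting.

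**Figure D4:**
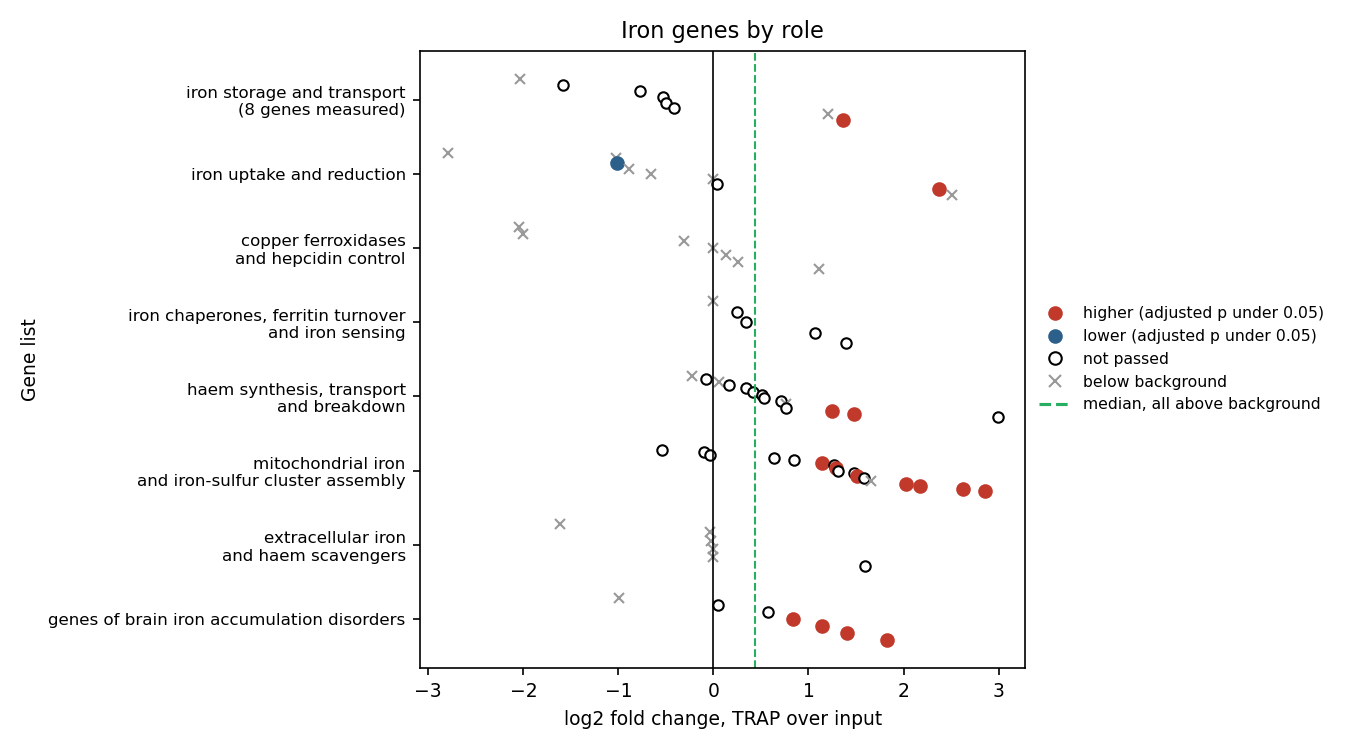
Log2 fold change of TRAP over input (horizontal axis) for the brightest probe set of each iron gene, by list. Red points rose and blue fell at an adjusted p under 0.05, open points did not pass, crosses are below background, and the dashed line is the median of all probe sets above background. In the mitochondrial and iron-sulfur list 13 of the 16 genes above background lie to the right of 0, against 1 of the 6 storage and transport genes. Of all 10014 genes above background, 6592 lie to the right of 0.

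Iron uptake and reduction held 3 of 9 genes above background, and 1 rose and 1 fell, beside 18.7% and 6.87% of all such genes. Tfr2, the second transferrin receptor, was at 621 and 708 units on TRAP replicates 2 and 4 and at 106 and 154 on input replicates 1 and 2. Both of its probe sets were higher in TRAP, by a log2 fold change of 2.38 on the brighter one (SE 0.26, adjusted p = 0.0208 from limma), while Tfrc itself was lower on both TRAP arrays. Steap2, a metalloreductase, was at 305 and 266 units in TRAP and 553 and 603 in input (log2 fold change -1.02, SE 0.11, adjusted p = 0.0200 from limma). Steap2 missed the threshold without any 1 of the 4 arrays (adjusted p up to 0.112 from limma), and Tfr2 without TRAP replicate 2 (0.127) or TRAP replicate 4 (0.130). Slc39a14, a zinc and iron importer, was at 153 and 172 units in TRAP and 160 and 156 in input, with overlapping fractions and a log2 fold change of 0.04 that turned to -0.37 after centring.

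Haem synthesis, transport and breakdown had 2 rises and 0 falls among 11 genes above background. That share of rises is near the 18.7% of all genes above background, of which 6.87% fell. Uros, an enzyme of haem synthesis, was at 503 and 513 units on TRAP replicates 2 and 4 and at 180 and 184 on input replicates 1 and 2 (log2 fold change 1.48, SE 0.02, adjusted p = 0.000368 from limma). Hmox2, the constitutive haem oxygenase of neurons, rose by a log2 fold change of 1.25 (SE 0.06, adjusted p = 0.00370 from limma), from 1489 and 1449 units in input to 3622 and 3349 in TRAP. Both passed under all 13 alternatives. Urod, a further enzyme of the pathway, was higher on both TRAP arrays but did not pass (log2 fold change 0.76, adjusted p = 0.0935 from limma).

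Genes of inherited brain iron accumulation had 4 rises and 0 falls among 6 above background, beside 18.7% and 6.87% of all such genes. Atp13a2, a lysosomal transporter gene of familial parkinsonism, was at 4225 and 4358 units on TRAP replicates 2 and 4 and at 1020 and 1425 on input replicates 1 and 2 (log2 fold change 1.83, SE 0.22, adjusted p = 0.0251 from limma). Coasy, an enzyme of coenzyme A synthesis, rose by 1.41 (SE 0.13, adjusted p = 0.0153) and the phospholipase Pla2g6 by 1.14 (SE 0.07, adjusted p = 0.00747) on the log2 scale by limma. Wdr45, an autophagy gene, was the fourth and was named after its value was seen. The count was 1 without any 1 of the 4 arrays, with values under 50 units raised to 50 or at a threshold of 0.01, and 2 after quantile normalization. Atp13a2 missed the threshold after quantile normalization (log2 fold change 1.32, adjusted p = 0.0556 from limma), without either TRAP array (adjusted p up to 0.147) and with values raised to 50 (0.106).

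**Figure D5:**
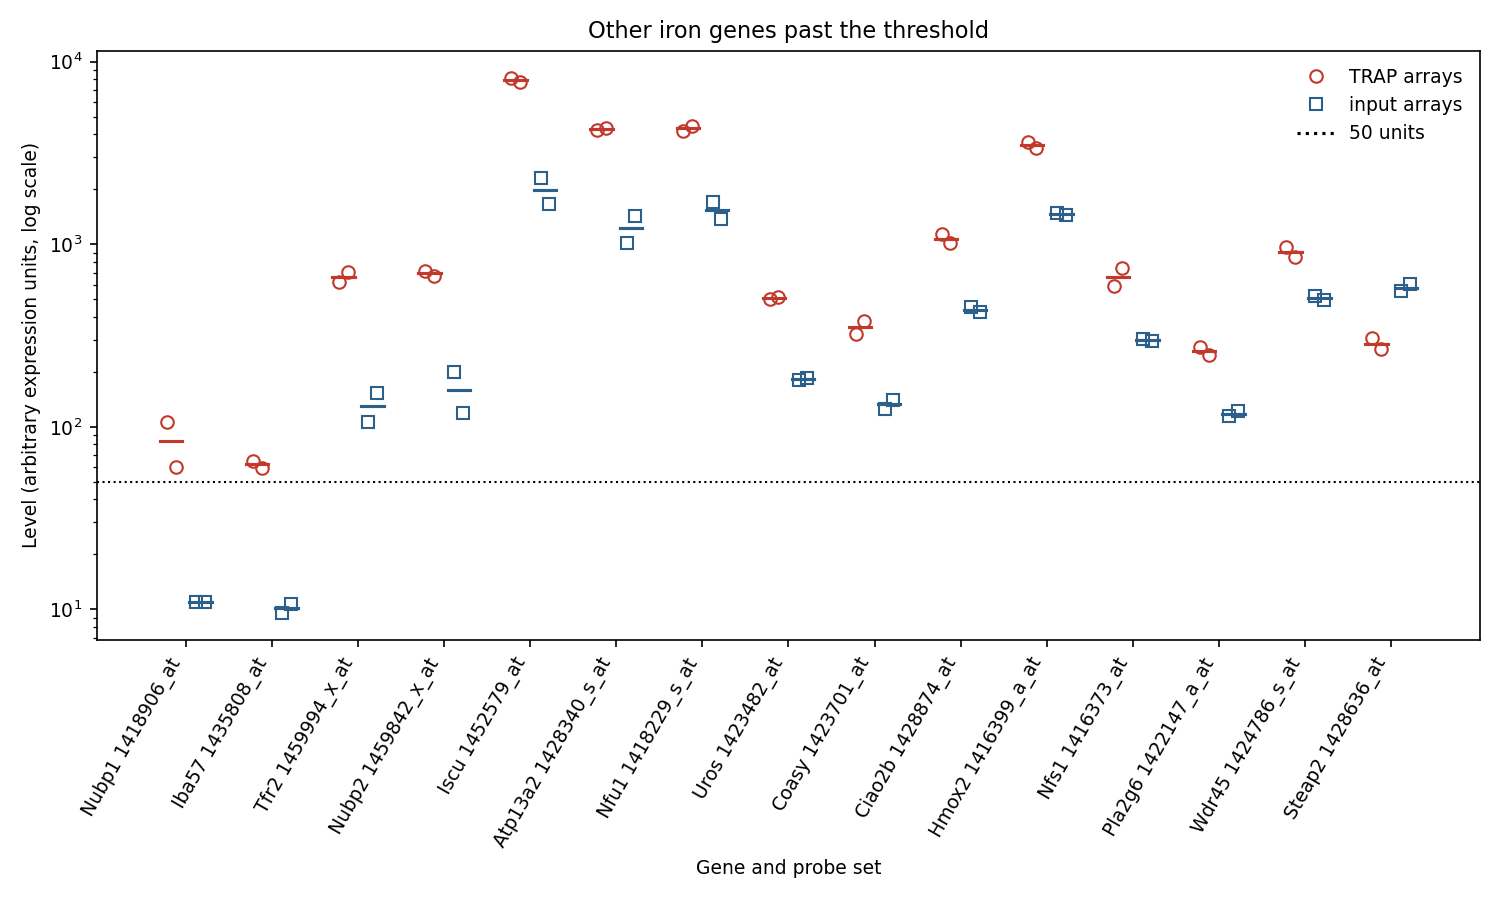
Level in arbitrary expression units (log axis) of the 15 other iron genes past the threshold, ordered by log2 fold change. TRAP is drawn as circles and input as squares, with a bar at each mean and a dotted line at 50 units. In each gene both TRAP arrays lie on one side of both input arrays, and only Steap2 is lower in TRAP.

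Among chaperones of cytosolic iron, ferritin turnover and iron sensing, 0 of the 4 genes above background passed. Pcbp1, which delivers iron to ferritin, was at 11045 and 12666 units on TRAP replicates 2 and 4 and at 5611 and 3603 on input replicates 1 and 2, so both TRAP arrays were higher (log2 fold change 1.40, SE 0.31, adjusted p = 0.0703 from limma). It passed after centring (0.99, adjusted p = 0.0291 from limma), in the fit above background only (adjusted p = 0.0363) and with an intensity trend (adjusted p = 0.0393). Pcbp2, a relative of Pcbp1, had a log2 fold change of 0.25 (adjusted p = 0.391 from limma), which turned to -0.16 after centring. Fbxl5, the iron-sensing subunit of the ligase that removes IRP2, was at 1388 and 1418 units in TRAP and at 1897 and 648 in input. No direction can be given, as the input arrays lie on either side of TRAP. Its log2 fold change was 1.11 without input replicate 1 and -0.44 without input replicate 2.

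Copper ferroxidases other than Cp and the genes of hepcidin control had 0 of 7 genes above background. Heph, the ferroxidase hephaestin, was at most 35.3 units on any array, Bmp6 at most 49.8 and Tmprss6 at most 20.6. Of the extracellular scavengers, Slc22a17, the lipocalin receptor, was the only one of 6 above background, and it did not pass (log2 fold change 1.59, adjusted p = 0.0883 from limma). Ltf and Cd163 lay under 15 units on all arrays. Hepcidin (Hamp), the hormone that removes ferroportin from the cell surface, stayed at the floor with at most 5.62 units.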

How the data were processed

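Affymetrix mouse genome arrays (two-cycle amplification of RNA) had been processed with GCRMA by the authors, and the deposited values are log2 expression, 1 per probe set and array. No GCRMA version is given in the sources used here. No further normalization was applied. The annotation gives 34945 tested probe sets 1 symbol, 932 several and 9160 none, and all 8 measured member genes matched RefSeq by gene identifier with 0 symbols changed. The 64 control probe sets were left out of the tests. TRAP and input were compared with limma 3.58.1 in R 4.3.3 (1 coefficient, empirical Bayes, two-sided, 2 residual and 0.317 prior degrees of freedom), checked on simulated data. Identical values within both fractions occur on 15551 probe sets, where limma's p is not informative (9920 were called), so calls were counted above background. For genes with several probe sets, that with the highest mean over the arrays was used. Folds against a fraction with no array at 50 units are bounds set at 50. Named were all members, up to 3 genes of each other iron list and up to 2 of each marker list, first those that passed by size of change, then the brightest. Aldoc, C1qc, Folr1, Kl, Aqp1, Foxj1 and Hamp lie outside this order and were named after their values were seen. Members, lists and tests were chosen with earlier results of these data known. Alternatives were quantile normalization, centring, a floor of 50 units, a fit above background only, an intensity trend, controls kept, a background of 100 units, a threshold of 0.01, each array left out, and averaging a gene's probe sets. The number of arrays limits the precision.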

Additional observations from a re-analysis of the deposited data

How the results depend on the processing

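No paired analysis was possible because the fractions share only replicate number 2. Among the storage and transport genes, quantile normalization gave 1 gene lower (0 as reported), and centring on bright probe sets gave 5 probe sets and 4 genes lower, with 3 other iron genes lower (1 as reported). With values under 50 units raised to 50 and at a threshold of 0.01, 0 member probe sets were higher and 0 lower, 0 member genes were higher, 0 other iron genes were lower, and 3 and 5 other iron genes were higher. Raising values gives most probe sets the same value on all arrays. At a background of 100 units 0 member probe sets and 0 genes were higher and 0 probe sets lower. A fit above background only gave 2 probe sets and 1 gene lower, and averaging a gene's probe sets gave 0 member genes higher and 0 other iron genes lower. With each array left out, member probe sets higher ranged from 0 to 1 and lower from 0 to 2, member genes higher from 0 to 1 and lower from 0 to 1, and other iron genes higher from 7 to 13 and lower from 0 to 2. Reversed log2 fold changes were those of Slc39a14 (-0.21 with quantile normalization, -0.37 centred, -0.029 with averaged probe sets, and from -0.043 without TRAP replicate 4 to 0.12 without TRAP replicate 2), Pcbp2 (-0.28 and -0.16 with quantile normalization and centring), Fbxl5 (-0.14 and -0.070 likewise, and from -0.44 without input replicate 2 to 1.11 without input replicate 1), Ltf (0.033 with quantile normalization) and the second Fth1 probe set (from -0.80 without input replicate 2 to 0.13 without input replicate 1). Apart from the effect of raised values, the cause was not tested. No other fold change recomputed reversed. Those recomputed were the brightest probe set of each measured member gene, the other member probe sets above background and up to 3 genes of each other iron list. The marker genes, Hamp, Iscu, Nfs1, Nfu1, Ciao2b and Wdr45 were not recomputed singly. All alternatives were planned. Signals near 50 units limit what can be said of Slc11a2, Slc40a1, Cp and Hfe.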
